A study of Homo sapiens with 6 samples.

Results

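The mouse cells of a species-mixing experiment were compared between 2 ways of capturing single cells, Drop-seq and 10X Chromium, each at 30 PCR cycles. The mouse line is written 5TGMG1 in the labels and 5TGM1 in the study's methods. It is a myeloma line and was captured together with a human line labelled JJN3, also from myeloma. The cells were mixed in equal parts for 10X and with more mouse than human cells for Drop-seq. Each capture gave 1 library at 30 cycles and 1 at 35, and the series also held a Drop-seq library at 25 cycles. The labels name no treatment other than the cycle number, and all groups held the same lines. The cDNA was read on nanopore instruments and counted per unique molecular identifier (UMI), a random tag put on each RNA molecule at capture so that its PCR copies count once. Drop-seq carried homotrimer tags on its beads, in which every base is written as a block of identical bases, and 10X carried ordinary monomer tags.

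Myeloma is a cancer of plasma cells, the antibody-secreting end stage of the B cell lineage. A plasma cell gives much of its RNA to antibody chains, to the proteins that fold and export them, and to ribosomes. A species mix lets each barcode be read as a mouse cell, a human cell or a mixture. Each count is listed under a transcript of 1 species. Whether reads alike in both species were placed with the wrong one was not tested. Mouse gene names were not used here, so transcripts are given by Ensembl identifier. The exception is ENSMUST00000034966, which the study's text gives as Rpl4, a protein of the large ribosomal subunit.

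The barcodes of largest count sum were taken as cells, 500 for Drop-seq and 2000 for 10X, the numbers in the labels. A cell was taken as mouse when at least 90% of its counts fell on mouse transcripts. This gave 291 mouse cells of 500 in Drop-seq (58.2%, exact 95% interval 53.7 to 62.6) and 806 of 2000 in 10X (40.3%, 38.1 to 42.5), 1097 of the 2500 cells of both libraries and of 6000 in the 5 libraries with count matrices. Human cells numbered 166 and 1006, and mixed cells 43 and 188. The mouse cell nearest the threshold had 90.4% mouse counts in Drop-seq and exactly 90% in 10X, and the nearest cell left out had 87.1% and 89.8%. The last barcode taken as a cell had 114 counts in Drop-seq and 76 in 10X, the same as the first one left out. No mouse cell barcode was shared between these libraries. With 1 library a side there is no replicate check of any difference between platforms, and all intervals cover counting error only. Platform, tag design, mixing ratio, number of cells and counting rule all differed together, and their parts cannot be told apart.

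The 10X mouse cells were much shallower than the Drop-seq mouse cells. The deposited Drop-seq matrix held no value below 3 and the 10X matrix none below 2, so values of 2 were set to missing in 10X to give both the same smallest value. An entry here is 1 transcript in 1 cell. Of 50758 mouse entries in 10X, 42825 (84.4%) were at 2. Setting them to missing left 27150 of 112800 mouse counts (24.1%). Drop-seq kept all of its 175011 mouse counts, 6.45 times as many. The median mouse cell held 276 counts in Drop-seq (quartiles 161.5 and 636) and 26 in 10X (15 and 40), while as deposited the 10X median was 115 (90 and 157). In 13 of the 806 10X mouse cells no value of 3 or more was left. Counts were uneven among cells. The tenth of mouse cells with the most counts held 44.8% of the mouse counts in Drop-seq and 32.1% in 10X, and the deepest Drop-seq cell alone held 14654 counts, 8.37% of the total. Human counts made up 1.27% of the counts of Drop-seq mouse cells and 1.39% of those of 10X mouse cells.

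**Figure D1:**
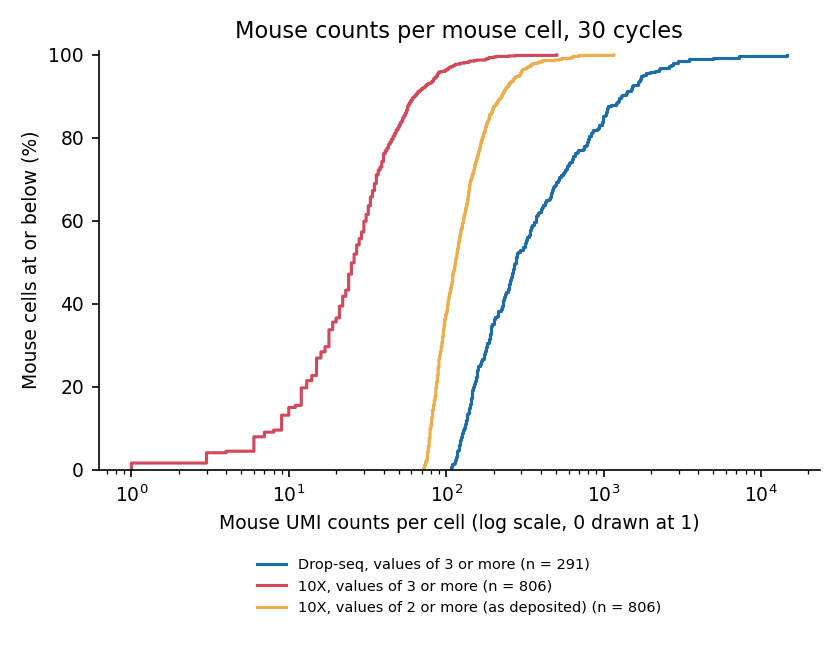
Cumulative share of mouse cells (percent, vertical axis) by their mouse UMI counts (log horizontal axis, 0 drawn at 1), for the 291 Drop-seq and the 806 10X mouse cells, the latter with and without values of 2. The 10X curve moves from a median of 115 to one of 26 when values of 2 are set to missing, and both lie left of Drop-seq at 276.

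The same difference showed in the number of transcripts seen per cell. The median mouse cell had 62 transcripts in Drop-seq (quartiles 37 and 124.5) and 8 in 10X (5 and 12), or 52 in 10X as deposited (41 and 71). Thinned to 100 counts per cell, with all 291 Drop-seq cells and the 506 10X cells that had as many, the medians were 50 transcripts in Drop-seq and 60 in 10X. The remaining 300 10X mouse cells were left out of that comparison. At 50 counts per cell, with every mouse cell kept, the medians were 34 and 37. These thinned values kept whatever was stored, from 3 upwards in Drop-seq and from 2 upwards in 10X. With values below 3 set to missing after thinning, the medians were 13 and 4 at 100 counts and 3 and 1 at 50. The order of the platforms at equal depth thus turned on the smallest value kept.

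Summed over mouse cells, 8496 mouse transcripts were stored in Drop-seq and 1812 in 10X, and 1028 in both. The shared ones were 12.1% of the Drop-seq transcripts and 56.7% of the 10X transcripts. They carried 42.5% of the Drop-seq mouse counts and 80.6% of the 10X mouse counts. With values of 2 kept, 12034 transcripts were stored in 10X and 4421 in both.

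The 10X counts were concentrated on fewer transcripts. The 10 most abundant mouse transcripts held 9.08% of the mouse counts in Drop-seq (8.95 to 9.22) and 26.1% in 10X (25.6 to 26.6), but 10.4% in 10X as deposited (10.3 to 10.6). The most abundant one held 1.52% in Drop-seq and 4.82% in 10X. To reach 50% of the counts took 366 transcripts in Drop-seq and 36 in 10X, against 408 in 10X as deposited. The concentration in 10X was therefore found with values below 3 missing. With values of 2 kept, the shares of the 10 leaders lay close and the order by transcripts to 50% was turned. That last comparison sets values from 2 upwards in 10X against values from 3 upwards in Drop-seq, so it is not a like one.

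The leading transcripts were not the same on the 2 platforms. With values below 3 missing, none of the 10 most abundant was shared, 15 of the 50 most abundant were, and 26 of the 100. At 35 cycles 1 of the 10, 15 of the 50 and 28 of the 100 were shared. The 10 leading Drop-seq transcripts were all stored in 10X, at ranks 12 to 236, and held 6.76% of the 10X counts. The 10 leading 10X transcripts were all stored in Drop-seq, at ranks 30 to 328, and held 1.61% of the Drop-seq counts. All 10 of the 10X leaders were at least 2-fold lower in Drop-seq, with log2 ratios from -5.95 to -2.87. Of the 10 Drop-seq leaders, 5 were at least 2-fold higher and 2 at least 2-fold lower in Drop-seq. Each set of leaders was chosen on counts that also enter the ratio, so these calls are partly set by the choice. Over all 286 transcripts compared below, 66.8% were higher in Drop-seq and 21.0% lower. Within a platform the leaders held between cycle numbers: 9 of 10 were shared by the Drop-seq libraries at 30 and 35 cycles and 8 of 10 by the 10X libraries.

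For the comparison across transcripts, counts were scaled to the mouse total of each library (CPM) and given as the log2 ratio of Drop-seq over 10X, with 0.5 counts added. The 286 transcripts with at least 100 counts over both libraries were compared, and 2-fold was used as a rule of size, not a test. In Drop-seq 191 were at least 2-fold higher (66.8%) and 60 at least 2-fold lower (21.0%), and 35 lay within 2-fold, so 251 were called in either direction (87.8%). The median log2 ratio was 2.54. The nearest values on either side of the 2-fold limit were 1.12 and 0.88 above and -1.05 and -0.97 below. Scaled instead by the median ratio of the compared transcripts stored in both libraries, which lay at 1.16, the split was 159 higher and 86 lower.

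How a transcript came to be compared bears on that split. Because Drop-seq had more counts, 256 of the 286 passed the minimum on their Drop-seq counts alone, 55 on their 10X counts alone and 31 on either. Of the 191 higher in Drop-seq, 102 were listed at 0 in 10X, with 100 to 592 counts in Drop-seq. Of the 60 lower, 11 were listed at 0 in Drop-seq, with 110 to 373 counts in 10X. A listed 0 is a missing entry in every cell and not a measured absence. Among the 173 transcripts stored in both libraries, 89 were at least 2-fold higher in Drop-seq and 49 at least 2-fold lower, with a median log2 ratio of 1.16. The counting interval lay wholly beyond 2-fold for 56 of the 89 and 41 of the 49.

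**Figure D2:**
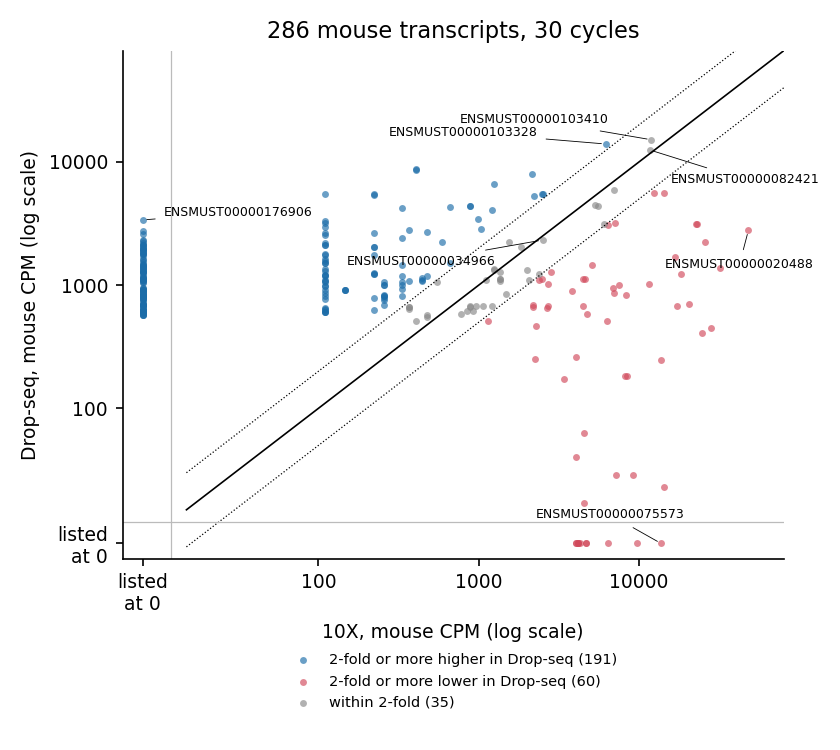
Mouse CPM in 10X (horizontal) and Drop-seq (vertical), both on log axes, for the 286 compared transcripts, each point 1 transcript; the strips at the edges hold those listed at 0. The 191 transcripts higher in Drop-seq lie mostly left of 1000 CPM in 10X and 102 of them in the strip, while the 60 lower ones lie at the right with 11 in the lower strip.

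With values below 3 missing, the split ran the other way among transcripts of higher mean CPM. Of 63 transcripts with a mean CPM below 500 over both libraries, 62 were higher in Drop-seq, and 51 of them were listed at 0 in 10X. The minimum of 100 counts fixes this, since no transcript 2-fold lower in Drop-seq can reach it at that mean CPM. Of the 23 with a mean CPM above 5000, 2 were higher in Drop-seq and 18 lower. Between 2000 and 5000 CPM, 15 of 50 were higher and 31 lower. The classes are formed from the same CPM as the ratio, so a transcript can enter an upper class on its 10X CPM alone. ENSMUST00000020488, for instance, had 2783 CPM in Drop-seq and 48177 in 10X. The split in the upper classes is thus partly set by the choice and does not show how calls depend on abundance. Setting values of 2 to missing raised the 10X CPM of its leading transcript, ENSMUST00000020488, from 16294 to 48177. The classes were not repeated with values of 2 kept, so these upper classes hold for this smallest value only. The entry of 3 counts that is the least a cell can show equals 17.1 CPM in Drop-seq and 110 CPM in 10X. When transcripts were chosen by a mean CPM of at least 500 in place of summed counts, 129 of 259 were higher in Drop-seq and 96 lower. When all 1028 transcripts stored in both libraries were taken with no further minimum, 131 were higher and 554 lower, so the side with more calls turned with the minimum. This last choice favours lower calls. A transcript stored in both has at least 110 CPM in 10X but can have as little as 17.1 in Drop-seq.

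**Figure D3:**
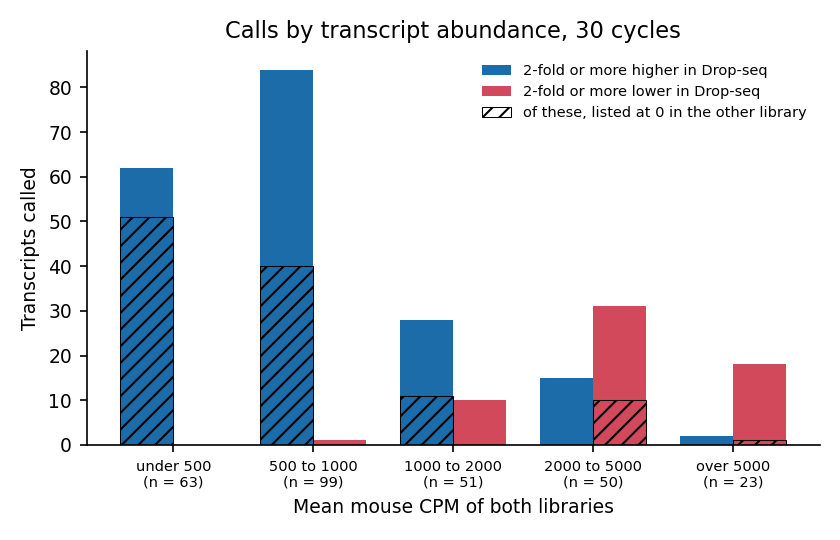
Number of mouse transcripts at least 2-fold higher (blue) or lower (red) in Drop-seq, by the mean of their mouse CPM in both libraries; hatching marks those listed at 0 in the other library. Calls below 1000 CPM are nearly all higher in Drop-seq, below 500 CPM because the minimum of 100 counts admits no lower one, and above 2000 CPM most are lower. All CPM have values below 3 missing.

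Single calls were steadier than their balance. With values of 2 kept in 10X, 180 of the 191 higher and 54 of the 60 lower transcripts were still called, and none turned. The 191 higher transcripts had 6061 counts in 10X as deposited, of which 1065 (17.6%) were left at 3 or more, and a median of 18 counts each. The 60 lower ones kept 15320 of 29296 counts (52.3%). Of the 102 listed at 0 in 10X, 91 had values of 2 there and 11 had none. A transcript higher in Drop-seq was stored in a median of 33 Drop-seq mouse cells (11.3%), and one lower in Drop-seq in a median of 40 10X mouse cells (4.96%).

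The balance was also different after thinning, which changed more than depth. Thinned to 100 counts per mouse cell with values below 3 kept, 94 transcripts were compared, of which 27 were higher in Drop-seq and 48 lower. With values below 3 set to missing after thinning, 30 were left, with 9 higher and 14 lower. Without the tenth of mouse cells with the most counts in each library, 106 of 169 were higher and 36 lower. Thinning left fewer and more abundant transcripts above the minimum of 100 counts and dropped 300 10X mouse cells, so the parts of depth and of the transcripts compared cannot be told apart here.

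The libraries at 35 cycles, made from the same captured cells, are technical repeats of each side. Of the mouse cell barcodes at 30 cycles, 271 of 291 in Drop-seq and 631 of 806 in 10X were mouse cell barcodes at 35 cycles too. There 280 of 419 compared transcripts were higher in Drop-seq (66.8%) and 82 lower (19.6%). Of the 191 called higher at 30 cycles, all 191 were compared at 35 and 180 were called the same way. Of the 60 called lower, 52 were compared and 47 called the same way, and no call turned. Of 102 transcripts listed at 0 in 10X at 30 cycles, 64 were again listed at 0 at 35, and of 11 listed at 0 in Drop-seq, 9 were.

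Ratios between cycle numbers within a platform were much narrower than ratios between platforms. Over 66 transcripts, the same ones in each ratio, the SD of the log2 ratio was 2.0 between platforms at 30 cycles and 1.81 at 35. These had at least 100 summed counts in each pair compared and were stored in all 4 libraries. That choice favours transcripts high in 10X: their median platform ratio at 30 cycles was -1.26, against 2.54 over the 286. The SD of 35 over 30 cycles was 0.17 in Drop-seq and 0.70 in 10X. Of the 66, 49 were at least 2-fold apart between platforms at 30 cycles, none between Drop-seq cycle numbers and 9 between 10X cycle numbers. With all transcripts that had 100 counts, none of 635 was 2-fold apart between Drop-seq cycle numbers (0%). In 10X, 10 of 105 were higher at 35 cycles (9.52%) and 15 lower (14.3%), 25 in all (23.8%). Over 163 transcripts stored in all 4 libraries, the platform ratio at 35 cycles minus that at 30 had a median of 0.30 and ranged from -2.14 to 2.65, and 54 differed by 2-fold or more.

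**Figure D4:**
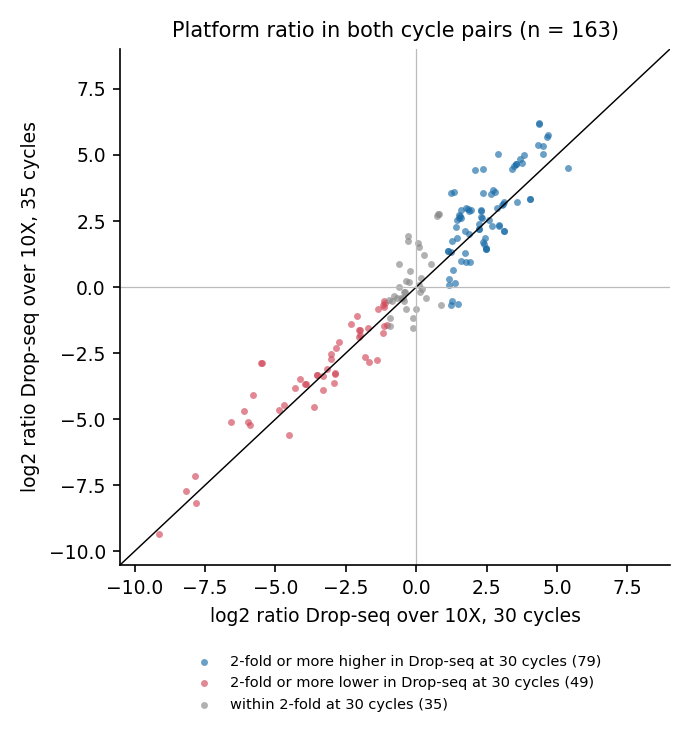
Log2 ratio of mouse CPM, Drop-seq over 10X, at 30 cycles (horizontal) and 35 cycles (vertical) for the 163 transcripts stored in all 4 libraries, coloured by the call at 30 cycles, with the line of equality. Of 128 called at 30 cycles, 113 are called the same way at 35 and none the opposite way.

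The marker transcripts given for the mouse cells lay within 2-fold between platforms. ENSMUST00000103410 was the most abundant mouse transcript of Drop-seq, with 2652 counts (15153 CPM), and rank 17 in 10X, with 324 counts (11934 CPM). Its log2 ratio was 0.34 (0.18 to 0.52). It was not steady: it was 1.24 with values of 2 kept, -0.42 at 35 cycles, -0.82 when scaled by the median ratio and -0.07 when scaled without the 10 leading transcripts. It was 2.37 after thinning to 100 counts per cell, 2.03 when values below 3 were kept after thinning, 1.20 with values below 5 missing and 1.19 against the 25-cycle Drop-seq library. ENSMUST00000082421 had 2194 counts in Drop-seq (12536 CPM, rank 3) and 316 in 10X (11639 CPM, rank 18), a log2 ratio of 0.11 (-0.06 to 0.28). It was 1.30 with values of 2 kept and 0.09 at 35 cycles, but -1.05 when scaled by the median ratio, -0.31 without the 10 leading transcripts and -0.62 with values below 5 missing. After thinning it was 0.95, or 1.76 when values below 3 were kept. Neither marker therefore has a settled direction between the platforms.

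By share of cells the markers stood further apart. ENSMUST00000103410 had a stored value in 238 of 291 Drop-seq mouse cells (81.8%, 76.9 to 86.0) and in 96 of 806 10X mouse cells (11.9%, 9.76 to 14.3), or 295 of 806 (36.6%) as deposited. The same transcript was stored in 17 of 166 Drop-seq human cells (10.2%) and in 0 of 1006 10X human cells, or 7 as deposited. The median total was 278 counts in Drop-seq mouse cells and 243 in Drop-seq human cells, and 26 and 33.5 in 10X. The human cells should lack a mouse transcript, so 10.2% describes the background in Drop-seq. Human cells were chosen for few mouse counts, which holds this level down. At 35 cycles it was 33 of 165 Drop-seq human cells (20.0%), and 49 of 165 (29.7%) for ENSMUST00000082421. ENSMUST00000082421 was stored in 206 of 291 Drop-seq mouse cells (70.8%) and 83 of 806 10X mouse cells (10.3%), and in 20 of 166 (12.05%) and 0 of 1006 human cells.

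These shares also depended on the smallest value kept and on depth. Thinned to 100 counts, with values below 3 kept, ENSMUST00000103410 was seen in 71.8% of 291 Drop-seq mouse cells (66.3 to 76.9) and 33.0% of 506 10X mouse cells (28.9 to 37.3). ENSMUST00000082421 was seen in 59.5% (53.6 to 65.1) and 26.9% (23.1 to 31.0). The shares in 10X lay near the 36.6% and 26.3% found as deposited without thinning. With values below 3 missing after thinning, ENSMUST00000103410 was seen in 43.0% and 3.16% and ENSMUST00000082421 in 27.1% and 5.34%. At either smallest value the Drop-seq share was the higher one and the intervals, which cover counting error only, did not overlap. Before thinning, the smallest stored value was 3 in Drop-seq and lower in 10X. Neither setting is therefore a like comparison of the platforms, and the part of this in the shares was not tested. At least 1 marker was stored in 264 of 291 Drop-seq mouse cells (90.7%) and 163 of 806 10X mouse cells (20.2%). Both were stored in 180 and 16 cells. The species rule counts all mouse transcripts, these included, so the shares describe the mouse cells and are no test of their species.

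**Figure D5:**
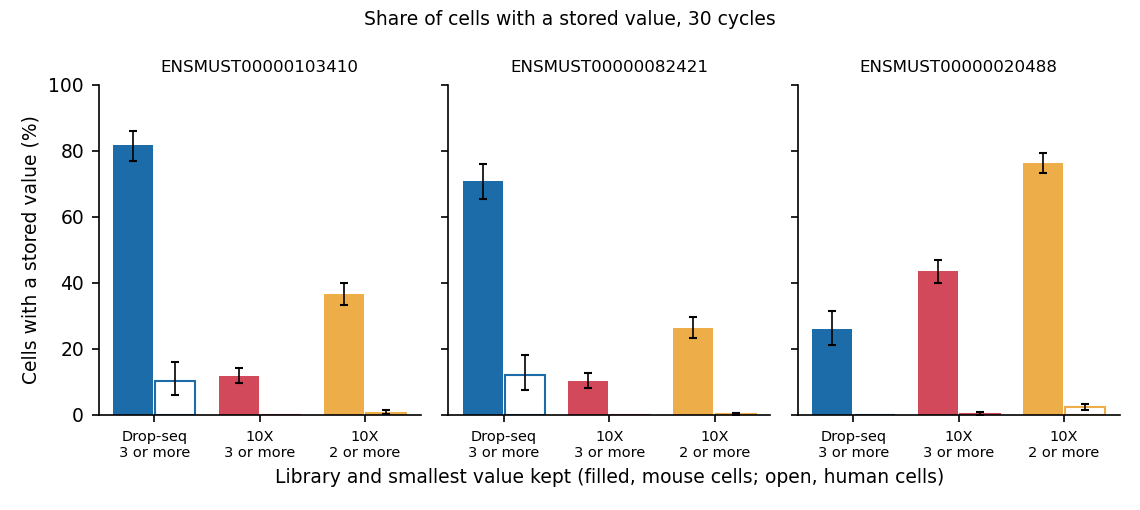
Percent of mouse cells (filled bars) and human cells (open bars) of each 30-cycle library with a stored value of 3 transcripts, for Drop-seq, for 10X with values of 3 or more and for 10X as deposited; error bars are exact 95% intervals for counting error, and none is drawn at 0. The markers stand at 81.8% and 70.8% in Drop-seq mouse cells and at 11.9% and 10.3% in 10X, while ENSMUST00000020488 stands higher in 10X.

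Among the Drop-seq mouse cells the CPM of the markers varied with the depth of the cell. The mouse cells of each library were ordered by their mouse counts as deposited and divided into 4 classes of like size. In the deepest 73 Drop-seq cells (640 to 14654 counts) ENSMUST00000103410 stood at 11367 CPM. It stood at 18879, 27451 and 30009 CPM in the following classes, the last holding 72 cells of 107 to 160 counts. ENSMUST00000082421 went from 9721 CPM in the deepest class to 15760, 22368 and 21037. In 10X the classes held 202, 202, 201 and 201 cells. With values of 2 missing, the first marker gave 11035, 14045, 10769 and 13221 CPM over them, with no such order. The cells of these classes then held 15 to 505, 0 to 86, 0 to 84 and 0 to 75 counts. The 10X classes thus overlapped in the counts behind these CPM, so this result is not comparable with the order in Drop-seq. With values of 2 kept the first marker gave 5384, 6430, 6807 and 8900 CPM, rising from deep to shallow cells as in Drop-seq. The second marker gave 5079, 5352, 4834 and 4999 CPM in 10X with values of 2 kept, with no such order. Drop-seq values below 3 are missing, which lowers the counts of shallow cells most and so can raise the CPM of abundant transcripts there. The part of this in the order of the classes was not tested. A CPM over all cells is weighted to the deep ones, and the deepest class held 119120 of the Drop-seq counts.

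ENSMUST00000103328 was the second most abundant mouse transcript in Drop-seq and was picked after its values were seen. It had 2450 counts there (13999 CPM) and 168 in 10X (6188 CPM), a log2 ratio of 1.17 (0.95 to 1.41). The ratio was 1.73 with values of 2 kept, 0.09 at 35 cycles and 0.01 when scaled by the median ratio. It followed the first marker cell by cell. All 231 Drop-seq mouse cells that stored it also stored ENSMUST00000103410, with the same value in 119 of them and within 1 count in 181. In 10X all 53 cells with it stored the marker too, with the same value in 36. For comparison, the 2 markers had the same value in 8 of the 180 Drop-seq cells that stored both. Whether reads were shared between ENSMUST00000103328 and ENSMUST00000103410 in the counting was not tested, so the counts of both are uncertain.

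Counts that repeat between transcripts were found more widely. In 10X, 69 of the 286 compared transcripts fell into 30 sets of up to 4 with the same value in every mouse cell. Of the 69, 54 were called higher in Drop-seq and 5 lower. Transcripts with no stored value in 10X are not in these sets. Of those stored in 10X, 89 were called higher in Drop-seq and 60 lower, and 35 were not called. Some, such as ENSMUST00000001809, had 110 CPM in 10X, which equals 3 counts and so 1 entry in 1 cell. For such transcripts the same value in every cell can rest on 1 entry. In Drop-seq 18 transcripts formed 9 pairs with the same value in every mouse cell. With 1 transcript kept of each set that repeated in both libraries, 184 of 277 were higher and 58 lower.

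Rpl4, the ribosomal transcript ENSMUST00000034966, had 407 counts in Drop-seq (2326 CPM) and 68 in 10X (2505 CPM). Its log2 ratio was -0.12 (-0.48 to 0.29), and 0.19 with values of 2 kept. It was stored in 59 of 291 Drop-seq mouse cells (20.3%) and 22 of 806 10X mouse cells (2.73%), and in 0 human cells of either library. At 35 cycles the ratio was -1.54 (-1.74 to -1.34). The libraries at 35 cycles held 515 counts in Drop-seq and 344 in 10X. Between cycle numbers the log2 ratio of 35 over 30 was -0.19 (-0.38 to 0.00) in Drop-seq and 1.24 (0.87 to 1.64) in 10X, so the platform ratio moved with the 10X libraries. The study names this transcript for a difference between 10X libraries of fewer and more PCR cycles. It was therefore not picked independently of the 10X change.

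The most abundant mouse transcript of 10X, ENSMUST00000020488, was also picked after its values were seen. It had 1308 counts in 10X (48177 CPM) and 487 in Drop-seq (2783 CPM, rank 36), 17.3 times lower in CPM, with a log2 ratio of -4.11 (-4.27 to -3.96). With values of 2 kept the ratio was -2.55 and at 35 cycles -3.49. It was stored in 350 of 806 10X mouse cells (43.4%), 615 (76.3%) as deposited, and in 76 of 291 Drop-seq mouse cells (26.1%). Human cells stored it in 3 of 1006 cases in 10X and 0 of 166 in Drop-seq. It was thus seen in a larger share of the shallower 10X mouse cells than of the Drop-seq mouse cells.

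At the ends of the list were transcripts listed at 0 in 1 of the 30-cycle libraries. ENSMUST00000176906 had the highest ratio, which rests on the 0.5 counts added to a listed 0, with 592 counts in Drop-seq (3383 CPM) over 95 of 291 mouse cells (32.6%) and a listed 0 in 10X. As deposited it had 12 counts in 6 10X mouse cells, all at 2, and a log2 ratio of 4.93 (4.18 to 5.95). The 35-cycle libraries held 837 and 6 counts of it, for a log2 ratio of 4.89. It was not the highest there: of the compared transcripts stored in both libraries, 20 had a higher ratio with values of 2 kept and 12 at 35 cycles. It was stored in no human cell of either library.

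ENSMUST00000075573 had the lowest ratio, with 373 counts in 10X (13738 CPM) and a listed 0 in Drop-seq. Its counts came from 66 of 806 10X mouse cells (8.19%), at a median of 5 and up to 14 per cell. At 35 cycles it had 583 counts in 10X and 3 in Drop-seq. As deposited it had 423 counts in 91 10X mouse cells. The transcript with the next lowest ratio was stored in 51 10X mouse cells, of which 48 (94.1%) also stored ENSMUST00000075573, and the third lowest in 29 cells, of which 28 did. These transcripts were thus found together in a small share of the 10X mouse cells. Whether reads were shared among them in the counting was not tested.

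The human cells of the same libraries, handled alike, gave 142 compared transcripts, of which 73 were higher in Drop-seq (51.4%) and 60 lower (42.3%). Summed by gene there were 89 higher and 42 lower of 145. Whether mouse and human cells differ in this was not tested.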

How the data were processed

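Single-cell RNA was measured in 6 samples, 1 per group, of which 5 had count matrices. According to the study's methods, the authors base called reads with Guppy, mapped them with minimap2 to hg38 and mm10 transcripts and collapsed UMIs with UMI-tools (directional) for 10X. For Drop-seq they describe a monomer count and a homotrimer correction, and which was used is not given in the sources used here. The deposited values are whole-number UMI counts per barcode and transcript, not normalized. Stored barcodes had 10 bases in every matrix, and values under the smallest stored one (3 in Drop-seq, 2 in 10X) are missing, not 0, which lowers the counts of shallow cells most. Species was read from the identifier prefix. Human transcript names for the sum by gene came from GENCODE release 44 and covered 92.7% of 7606 identifiers. Mouse annotation was not used here.

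Cells, purity and minimum follow the report. No doublet caller was run, so doublets of 1 species stayed in. Cells were summed with numpy 2.4.6 and pandas 2.3.3 under Python 3.11.15. Shares have exact Clopper-Pearson intervals and ratios exact conditional binomial intervals, at 95%, from scipy 1.17.1. These assume independent molecules, which PCR copies and clustered cells do not give. No test was made with 1 library a side. Named transcripts were the 2 given markers, the transcript in the study's text and the highest and lowest ratios. The members, lists and limits were chosen with earlier results of these data known. For the calls, 15 alternatives were planned and 4 were added after seeing the data: a mean CPM of at least 500, 3 counts in place of 0, leaving out the tenth of cells with the most counts, and thinning with low values kept.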

Additional observations from a re-analysis of the deposited data

How the results depend on the processing

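The counts of 191 transcripts higher and 60 lower in Drop-seq stayed within 1.5 times under both other purities, either other choice of cells, both other scalings, single members of repeated sets, the other libraries and 3 counts in place of 0. Keeping values of 2 in 10X gave 113 lower, and setting values below 5 to missing gave 29 lower. At a minimum of 50 summed counts 401 were higher and 100 lower, at 200 these were 95 and 39, and 1 count in each library gave 554 lower. A mean CPM of at least 500 gave 96 lower. Without the tenth of cells with the most counts there were 106 and 36. Thinning to 100 counts gave 9 and 14 with values below 3 missing, and 27 higher with them kept. The 10 leading transcripts held 12.03% in Drop-seq and 49.9% in 10X with values below 5 missing, 8.36% and 23.6% with the cells halved, 8.43% and 27.4% at 35 cycles, and 10.4% in 10X with values of 2 kept.

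Transcripts per mouse cell with a value of 3 or more were 13 in Drop-seq and 4 in 10X after thinning to 100 counts and 3 and 1 after thinning to 50. They were 24 and 0 with values below 5 missing, and 52 in 10X with values of 2 kept. The share of mouse cells with ENSMUST00000103410 was 67.7% and 0.868% with values below 5 missing, 43.0% and 3.16% at 100 counts and 16.2% and 0.744% at 50 in Drop-seq and 10X, and 36.6% in 10X with values of 2 kept. For ENSMUST00000082421 these were 56.7% and 2.36%, 27.1% and 5.34%, 12.03% and 1.36%, and 26.3%. No log2 ratio of a named transcript called at 2-fold turned under any alternative that gave one. Beyond the smallest value kept, the cause of these changes was not tested. No paired analysis was possible because each group holds 1 library and no test was made.

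The smallest value kept limits the 10X side most. It left a median of 26 counts per 10X mouse cell, against 115 as deposited. In either library a transcript present at 1 or 2 counts in a cell leaves no entry.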

Other observations

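The Drop-seq library at 25 cycles stored values from 1 upwards, and its label gave 1000 cells, of which 590 were mouse. ENSMUST00000103410 was stored in 527 of 590 mouse cells (89.3%) and 78 of 251 human cells (31.1%) with all values kept. With values below 3 missing these were 415 mouse cells (70.3%) and 8 human cells (3.19%). In this library, then, most entries of the transcript in human cells were at 1 or 2 counts. ENSMUST00000075573, listed at 0 in Drop-seq at 30 cycles, had 10 counts over 5 of the 590 mouse cells. ENSMUST00000176906 had 897 counts over 262 mouse cells (44.4%). Of the 291 mouse cell barcodes at 30 cycles, 253 were also mouse cell barcodes at 25 cycles.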
